A study of Mus musculus with 5 samples.

Results

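Transcript levels of 10 transcription factors of the developing and adult nephron were examined in whole mouse kidneys. They were Pax2, Pax8, Lhx1, Sox4, Sox9, Sox11, Irx1, Irx2, Irx3 and Emx2, taken by symbol from a table of 23997 rows, and all 10 had a row of their own. Bulk RNA-seq had been done on 5 kidney libraries from mice aged 8 weeks. Of these, 3 carried the genotype label uninduced control and 2 the label Pkd1 knockout (titled SKO, and named PkdTKO in the series' text). The libraries labelled control are called C0, C1 and C2 below, and those labelled knockout K0 and K1. The series asked what part metalloproteinases, Adamts1 among them, play in basement membrane remodelling and tubule dilation. Strain, sex, the promoter driving the deletion, the inducing agent and whether each library was 1 animal could not be read from the labels. The p-values therefore measure only the spread between these libraries, which may be technical.

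Pkd1 encodes polycystin-1, a membrane protein of the primary cilium whose loss turns kidney tubules into cysts. Pax2 and Pax8 are paired-domain factors that specify the renal lineage and stay on in adult tubules, and Lhx1 and Emx2 act with them in the ureteric bud and the early nephron. Iroquois homeobox genes (Irx1, Irx2 and Irx3) pattern the middle part of the nephron, which becomes the loop of Henle. Sox4 and Sox11 belong, with Sox12, to the SoxC group that acts in progenitors of many organs, and Sox9 marks tubule cells that respond to injury as well as tips of the growing ureteric bud.

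Values are the authors' FPKM, fragment counts scaled to transcript length and to library size, so levels of different genes can be set side by side per length. FPKM summed to between 462814.3 and 507052.8 per library. Steps between the lowest values in genes with 1 annotated transcript put the depth, with a step taken as 1 fragment, at roughly 151000000, 173000000 and 105000000 fragments in C0, C1 and C2, 88000000 in K0 and 211500000 in K1. Differences were tested with limma on log2(FPKM + 1) over the 12640 rows whose mean FPKM reached 1. This called 802 of the rows (6.34%) at a threshold of 0.05, 2.73% as higher and 3.62% as lower in the knockout libraries. The split was 345 higher and 457 lower, and 454 and 266 after rescaling every library to a common sum. The targeted gene, Pkd1, showed no detectable difference over its whole length (FPKM 3.22, 3.51 and 3.49 in the controls, 2.72 in K0 and 3.60 in K1; limma adjusted p = 0.646), and K1 lay above every control. Reads outside a deleted part of the gene would count here, so this value does not check the labels. Directions below follow the labels as given. The libraries also differed in the sex of their RNA. Xist, the transcript of the inactive X chromosome, was at 0.0222 to 0.0275 in the controls, 30.8 in K0 and 80.3 in K1. Ddx3y, a gene of the Y chromosome, was at 17.8 to 18.6 in the controls, 7.30 in K0 and 0.00194 in K1. K0 therefore held RNA with both signals, and sex and genotype cannot be told apart. Results are given for K0 and K1 separately wherever they differed.

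Of the 10 factors, Sox4 rose and Irx1 fell. The mean FPKM ratio of knockout to control libraries was 2.01 for Sox4 and 0.354 for Irx1. The other 6 of 8 tested factors did not pass, and Sox9 and Sox11 lay below the filter on low values. The median log2 difference of the 8 tested factors was -0.11, beside -0.016 over all tested rows. In 5 of the 8 the 2 knockout libraries lay wholly above (Sox4 and Pax8) or wholly below (Irx1, Irx2 and Irx3) the controls. Over all tested rows 48.2% did so, 21.9% above and 26.3% below. With K0 alone 4 of the 8 passed, 1 higher and 3 lower, where 20.6% of all rows did (11.5% higher and 9.09% lower). With K1 alone 2 passed, 1 higher and 1 lower, where 8.34% of all rows did (4.09% higher and 4.25% lower). All of these comparisons share the same 3 controls.

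**Figure D1:**
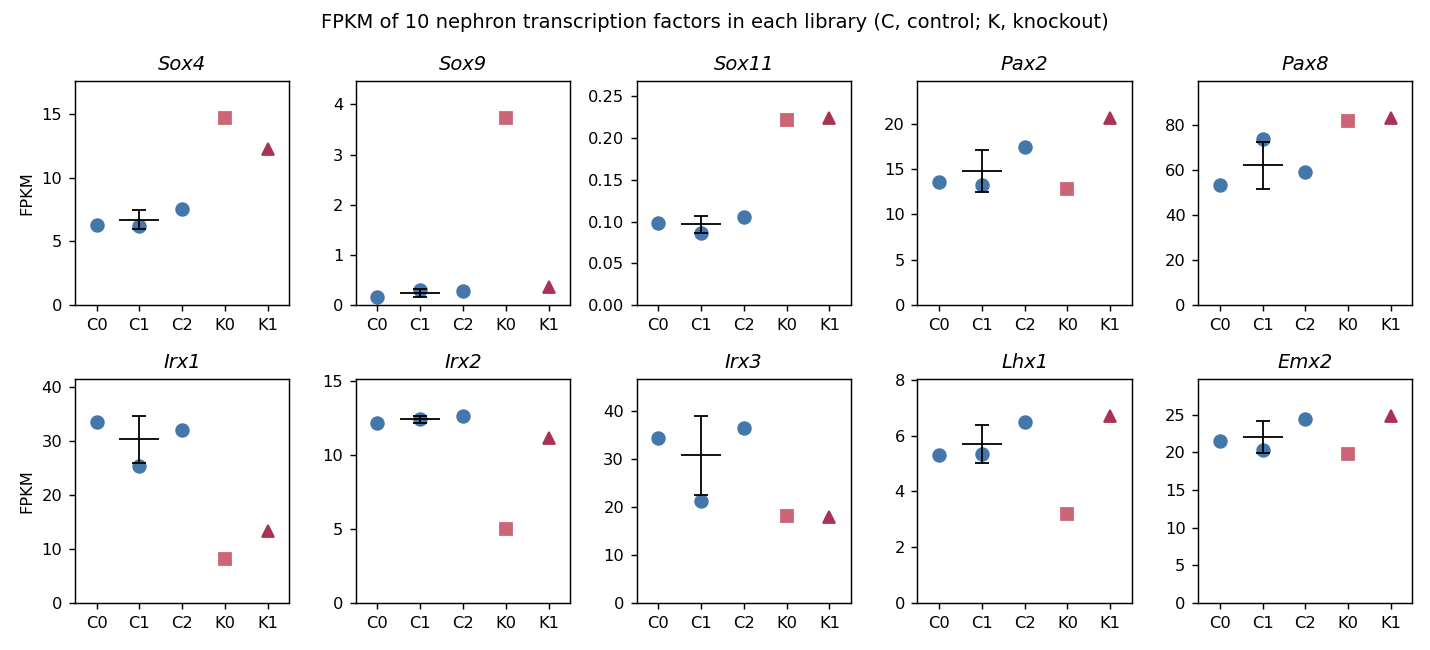
FPKM (vertical axes, linear, starting at 0) of each factor in control libraries C0 to C2 (circles) and knockout libraries K0 (square) and K1 (triangle), with the control mean and SD (n = 3) as a black bar. Sox4, Sox11 and Pax8 were higher and Irx1, Irx2 and Irx3 lower in both knockout libraries than in every control. Sox9 was above every control in both, but far above in K0 only. Over all tested rows, which leave out Sox9 and Sox11, the groups did not overlap in 48.2%.

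Sox4, a single-exon gene (ENSMUSG00000076431.4, mm10 chromosome 13, 28948919 to 28953713, minus strand), was higher in both knockout libraries. Its FPKM was 6.31, 6.21 and 7.58 in C0, C1 and C2, 14.6 in K0 and 12.3 in K1. The lowest knockout value thus stood well above the highest control. Sox4 rose by 0.91 on the log2 scale (SE 0.118, 95% interval 0.61 to 1.20; by limma the adjusted p was 0.0254). An exact permutation test over libraries gave p = 0.1, its lowest possible value with 3 and 2 libraries. Each knockout library passed alone against the same controls (limma adjusted p = 0.0128 for K0 and 0.0406 for K1). Without C0, C1 or C2 the adjusted p was 0.132, 0.0805 and 0.118, in fits where 37, 155 and 36 rows passed in all. GENCODE places a long noncoding RNA, Gm26735, on the opposite strand over part of Sox4, and without known strandedness their reads cannot be told apart.

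Sox11, another SoxC gene (ENSMUSG00000063632.6, chromosome 12, 27334264 to 27342574, minus strand), was scarce but differed by a similar factor. Its FPKM was 0.0983, 0.0862 and 0.106 in C0, C1 and C2, and 0.221 and 0.224 in K0 and K1. If a step in the low values is 1 fragment, those values rest on about 123, 124 and 93 fragments in the controls and 162 and 393 in the knockout libraries. Whether a step is a fragment or a read of a pair could not be told, and in the latter case counts would be lower and intervals wider. With fragments assumed, the exact Poisson 95% intervals, which cover counting error only, ended at 0.13 in the highest control and began at 0.189 in K0. The ratio of mean FPKM was 2.30, against 2.01 for Sox4. In a fit with no filter on low values Sox11 rose (log2 difference 0.16 on the log2(FPKM + 1) scale, which understates the change of so low a gene; SE 0.0129, limma adjusted p = 0.0241, where 2.45% of 19713 rows passed, 1.27% higher and 1.17% lower). Sox4 passed there as well (adjusted p = 0.0482).

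Since Sox4 and Sox11 were higher in both knockout libraries, the start of each gene is shown. The bases run from 250 to 51 before the RefSeq start on the gene's own strand (GRCm38.p6, the assembly named mm10), at chr13:28953750-28953949 for Sox4 and chr12:27342769-27342968 for Sox11. For Sox11 this RefSeq start lies upstream of the GENCODE gene given above, so its window lies further from that gene. Capitals mark matches, on either strand, to a CCAAT box (CCAAT), a GC box (GGGCGG) or an E-box (CANNTG).
Sox4: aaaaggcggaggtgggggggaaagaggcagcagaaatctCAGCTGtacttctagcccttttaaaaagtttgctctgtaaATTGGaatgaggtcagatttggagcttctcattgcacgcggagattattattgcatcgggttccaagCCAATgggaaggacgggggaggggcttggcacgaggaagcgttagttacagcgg
Sox11: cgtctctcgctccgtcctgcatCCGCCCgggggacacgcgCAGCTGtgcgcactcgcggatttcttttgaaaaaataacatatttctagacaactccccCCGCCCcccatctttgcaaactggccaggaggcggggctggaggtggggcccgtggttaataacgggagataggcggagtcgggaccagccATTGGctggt
Both windows held 1 E-box, which 59.0% of 32851 promoter windows of 200 bases held. The CCAAT box occurred 2 times in the Sox4 window and 1 time in that of Sox11, and in 28.4% of all windows. A GC box occurred 2 times for Sox11, 0 times for Sox4 and in 24.6% of all windows. Neither window matched a TATA box (TATAAA, 9.14% of windows), an AP-1 site (TGANTCA, 5.57%), a Sox core (AACAAT, 7.96%) or a Pax paired-domain core (GTCACGC, 1.27%). All windows ended 51 bases before the start. Bases nearer the start were not searched, so whether these genes have a TATA box there cannot be read from the windows. The matches did not overlap each other. Sox4 had 8 CpG dinucleotides and Sox11 16, beside a median of 4, and 35.0% and 15.9% of windows held at least as many.

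Sox9 (ENSMUSG00000000567.5, chromosome 11, 112782224 to 112787760, plus strand) was high in a single library. Its FPKM was 0.159, 0.301 and 0.286 in C0, C1 and C2, 3.72 in K0 and 0.373 in K1. K0 was thus at 1496% of the control mean (0.249 ± 0.0780, SD, n = 3) and K1 at 149.8% of it. K1 lay above all controls, but its Poisson 95% interval (0.333 to 0.415) overlapped that of C1 (0.262 to 0.344) and that of C2 (0.238 to 0.341). With no filter on low values Sox9 did not pass (log2 difference 1.03, SE 0.541, 95% interval -0.40 to 2.46, limma adjusted p = 0.319). On the same assumption about 1354 fragments stood behind the value of K0, against 99 to 215 in the controls.

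The sum of tubule injury markers was, like Sox9, highest in K0, but single markers followed different patterns. The summed FPKM over 19 genes (Spp1, listed at 0 in both knockout libraries, was left out) was 559.2 to 569.3 in the controls, 1281 in K0 and 596.6 in K1. Havcr1, a surface protein of damaged proximal tubule cells, had an FPKM of 0.718 to 1.12 in the controls, 137.4 in K0 and 0.593 in K1. Of the 19 tested markers 5 rose, 1 (Spp1) was called lower and 13 did not pass by limma. Over all tested rows 2.73% were called higher and 3.62% lower. Havcr1 and Krt20 had a control mean under 1 and passed the filter on low values only through K0, and neither was among the 5. Cdh6, a cadherin of the embryonic proximal tubule, rose from 1.23 ± 0.0313 (SD, n = 3) to 4.81 and 8.06 in K0 and K1, and Prom1, a membrane protein of progenitor cells, from 34.0 ± 8.40 to 90.5 and 108.1. Cp, the copper protein ceruloplasmin, was at 8.07 to 9.96 in the controls, 33.4 in K0 and 19.1 in K1. Cdh6 and Prom1 were thus higher in K1 than in K0, the reverse of Sox9, and Havcr1, Clu, Krt7, Krt8 and Krt19 in K1 lay below every control. Sox4 and Sox11, unlike Sox9, differed between the 2 knockout libraries by only 0.24 and -0.0029 on the log2(FPKM + 1) scale (1.78 for Sox9). The difference between these libraries was not tested, nor was the part of injury in the Sox9 value.

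Other cell types moved with K0 too. Summed macrophage markers (11 genes) were at 105.9 to 117.6 in the controls, 473.6 in K0 and 159.3 in K1. Fibroblast and pericyte markers (10 genes) were at 80.2 to 118.8, 231.8 and 120.4, lymphocyte markers (8 genes) at 5.34 to 6.07, 17.3 and 8.51, and cell division genes (11 genes) at 15.6 to 31.1, 73.5 and 29.3. None of the tested genes in these 4 lists passed over both libraries by limma, and 6 of 10, 3 of 10, 3 of 4 and 3 of 10 were higher at an unadjusted p under 0.05, as were 12.5% of all tested rows. Of these, 1 macrophage gene (Mrc1) and 2 lymphocyte genes (Cd3e and Cd3g) had a control mean under 1 and passed the filter on low values only through the knockout libraries. Their part in the Sox4, Sox9 and Sox11 values was not tested. In K1 the cell division sum was within the control range, the fibroblast sum just above its own, and the macrophage and lymphocyte sums at 142.2% and 150.7% of the control mean. Sox4 was 1.83 times and Sox11 2.31 times its control mean there. Single markers spread around these sums. In K1 Lyz2 was at 210.1% and Cd3g at 186.2% of the control mean, but Csf1r at 114.5% and Nkg7 at 112.6%.

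**Figure D2:**
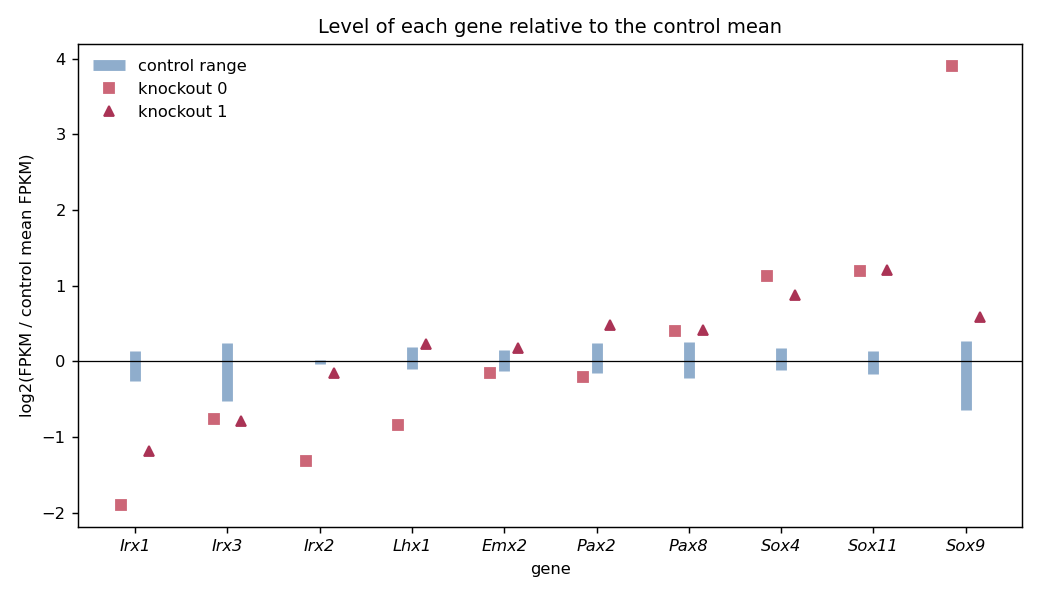
Each factor's FPKM divided by its control mean, as log2 (vertical axis), for K0 (square) and K1 (triangle), with the range of the 3 controls as a blue bar; genes are ordered by the ratio of group means. The 2 knockout libraries sat close together for Irx3, Pax8, Sox4 and Sox11, apart for Sox9, Irx2, Lhx1, Irx1 and Pax2, and between these for Emx2.

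Irx1 (ENSMUSG00000060969.9, chromosome 13, 71957921 to 71963723, minus strand) gave the largest called difference of the 10. Its FPKM was 33.4, 25.4 and 32.0 in C0, C1 and C2, 8.14 in K0 and 13.3 in K1. Both knockout libraries were far below the lowest control, at 26.9% and 44.0% of the control mean. Irx1 fell by 1.44 on the log2 scale (SE 0.221, 95% interval -2.00 to -0.89, limma adjusted p = 0.0311), with an exact permutation p of 0.1. K0 and K1 each passed alone (limma adjusted p = 0.00788 and 0.0397). The call was lost with no filter on low values (0.0608) and without C0, C1 or C2 (0.146, 0.0773 and 0.173), while the log2 difference stayed between -1.76 and -1.12 with any 1 library left out.

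Irx2, which shares the gene cluster with Irx1 at a distance of 665.1 kb (ENSMUSG00000001504.10, chromosome 13, 72628820 to 72634198, plus strand), was clearly low in K0 only. Its FPKM was 12.1, 12.4 and 12.6 in C0, C1 and C2, 4.96 in K0 and 11.2 in K1. The controls were tight (12.4 ± 0.228, SD, n = 3), and K1 fell just outside them at 90.1% of their mean. Over both libraries the log2 difference of -0.65 (SE 0.291, 95% interval -1.38 to 0.08) missed the threshold (limma adjusted p = 0.206). Against the controls, K0 alone gave -1.17 (adjusted p = 0.00225) and K1 alone -0.14 (adjusted p = 0.219). Gm20554, a noncoding RNA that starts 256 bases away on the other strand, was at 1.15, 1.29 and 1.54 in the controls, 0.398 in K0 and 1.22 in K1. It was thus likewise low in K0 and within the control range in K1 (limma adjusted p = 0.291).

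The stretch between these divergent starts is shown because both transcripts were low in the same library. It covers chr13:72628570-72628769 (GRCm38.p6, RefSeq, plus strand), from 250 to 51 bases before the start of Irx2, with the same motifs in capitals.
Irx2: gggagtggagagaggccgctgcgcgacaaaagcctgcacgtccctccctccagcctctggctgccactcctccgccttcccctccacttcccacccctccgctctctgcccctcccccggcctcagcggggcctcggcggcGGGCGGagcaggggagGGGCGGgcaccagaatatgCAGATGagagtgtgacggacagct
It held 2 GC boxes, 1 E-box, 0 CCAAT boxes and 14 CpG dinucleotides, and 19.8% of windows held at least as many CpG. The TATA box, AP-1, Sox and Pax letters searched above were not in this window, and bases nearer the start were again not searched.

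Irx3, on another cluster (ENSMUSG00000031734.13, chromosome 8, 91798525 to 91802067, minus strand), was lower in both knockout libraries, but its controls spread widely. Its FPKM was 34.5, 21.3 and 36.5 in C0, C1 and C2, and 18.1 and 17.9 in K0 and K1. The knockout libraries were nearly alike, and C1 stood much closer to them than the other controls did. The log2 difference of -0.71 (SE 0.235, 95% interval -1.30 to -0.12) missed the threshold (limma adjusted p = 0.126, exact permutation p = 0.2). Without C1 it was -0.94 and passed (limma adjusted p = 0.035), in a fit where 155 rows passed in all. Without C0 or C2 it was -0.61 and -0.57 and did not pass (limma adjusted p = 0.316 and 0.326). An antisense transcript, Irx3os, overlaps the gene in GENCODE, so part of the signal may not be told apart from it. Irx5, its neighbour 555.6 kb away, was at 1.68 ± 0.232 (SD, n = 3) in the controls and 1.40 and 1.74 in K0 and K1.

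Summed over Irx1, Irx2 and Irx3, FPKM was 80.0, 59.1 and 81.1 in the controls, 31.2 in K0 and 42.3 in K1. In whole-kidney RNA, fewer cells of a type and less RNA per cell cannot be told apart, so markers of the segments are given beside these sums. Thick ascending limb markers (6 genes, without Umod, which was listed at 0 in the controls) summed to 809.8 to 1126 in the controls, 488.1 in K0 and 922.0 in K1. Distal convoluted tubule markers (6 genes) summed to 530.5 to 546.7, 279.4 and 471.7, and intercalated cell markers (8 genes) to 249.5 to 310.3, 148.8 and 229.8. In K0 these sums were at 50.4%, 51.8% and 53.7% of the control mean, where Irx1 was at 26.9%, Irx2 at 40.03% and Irx3 at 58.8%. In K1 they were at 95.2%, 87.5% and 83.0%, where Irx1 was at 44.0%, Irx2 at 90.1% and Irx3 at 58.1%. Irx1 was thus below all 3 sums in both libraries, Irx2 in K0 only and Irx3 in K1 only. Sums weigh abundant genes most, and single markers spread around them. Pvalb was at 24.7% of its control mean in K0, lower than Irx1, and at 63.5% in K1. Slc4a1 was at 27.4% and 69.1%, and Slc8a1 at 34.3% and 76.6%. On the other side, Cldn16 was at 138.1% and 101.3%, and Kcnj1 at 91.5% and 141.9%. Calb1, a calcium buffer of the distal convoluted tubule, fell from 265.6 ± 21.7 (SD, n = 3) to 100.5 and 148.8 (limma adjusted p = 0.0362), the 1 gene of its 6 that passed. Slc12a3, the salt cotransporter of that segment, was at 148.9 to 173.1 in the controls, 123.6 in K0 and 224.9 in K1, and Wnk1 at 49.9 to 56.9, 37.9 and 58.7. Slc12a1, the salt cotransporter of the thick ascending limb, was at 195.7 to 291.5 in the controls, 114.3 in K0 and 294.3 in K1, and did not pass (0.572). The part of segment composition in the Irx values was not tested.

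**Figure D3:**
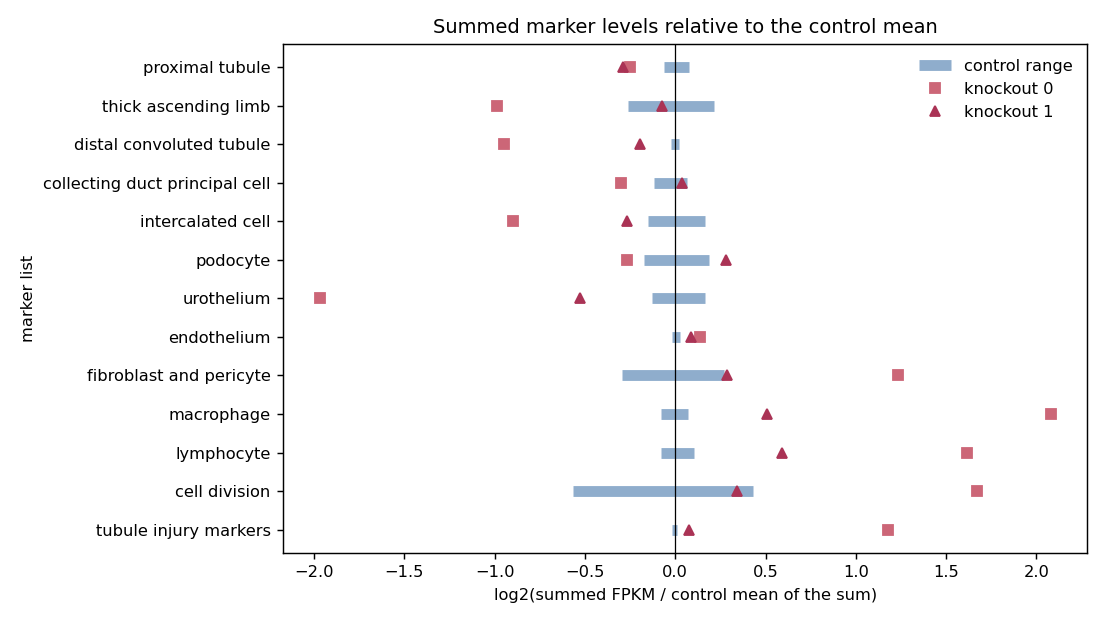
Summed FPKM of each marker list divided by its control mean, as log2 (horizontal axis), for K0 (square) and K1 (triangle), with the range of the 3 controls as a blue bar. Macrophage, lymphocyte, cell division, fibroblast and injury sums were highest in K0, and distal segment and urothelium sums were lowest there.

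Proximal tubule markers summed to 3437 to 3795 in the controls, 3021 in K0 and 2943 in K1 (12 genes, of which the endocytic receptor Lrp2 and the phosphate transporter Slc34a1 were listed at 0 in every library). Slc7a13 alone was at 305.9 to 630.8 in the controls, 174.6 in K0 and 1.83 in K1. Of the 10 tested genes 3 lay above every control in both knockout libraries and 4, Slc7a13 among them, below. Over all tested rows 21.9% and 26.3% did so. The lower sum was thus not shared by all its genes. Collecting duct principal cell markers (9 genes) summed to 761.0 to 864.2, 670.2 and 846.1, podocyte markers (7 genes) to 110.1 to 141.5, 103.1 and 151.1, endothelial markers (10 genes) to 243.0 to 251.4, 271.2 and 261.4, and urothelial markers (7 genes) to 37.8 to 46.3, 10.6 and 28.7. Markers of every kidney segment listed were therefore present in all libraries, whereas Lrp2, Slc34a1 and Umod were listed at 0 where kidney tissue holds them.

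Pax8, the most abundant of the 10 in every library (ENSMUSG00000026976.15, chromosome 2, 24420560 to 24475599, minus strand), was modestly higher in both knockout libraries without passing the test. Its FPKM was 53.5, 73.9 and 59.1 in C0, C1 and C2, 81.9 in K0 and 83.1 in K1. All knockout values lay above all controls, and the knockout libraries were almost equal. The log2 difference was 0.42 (SE 0.145, 95% interval 0.05 to 0.78, limma adjusted p = 0.138, exact permutation p = 0.2). It ranged from 0.32 to 0.55 with any 1 library left out. The noncoding gene Gm13415 overlaps Pax8 on the other strand.

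Pax2 (ENSMUSG00000004231.15, chromosome 19, 44756045 to 44837871, plus strand) lay on opposite sides of the controls in the 2 knockout libraries. Its FPKM was 13.6, 13.3 and 17.4 in C0, C1 and C2, 12.8 in K0 and 20.6 in K1. One knockout library was below all controls and the other above them. The log2 difference of 0.14 (SE 0.219, 95% interval -0.41 to 0.69) missed the threshold (limma adjusted p = 0.71), and without K1 it was -0.18. Pax2 and Pax8 together summed to 67.1, 87.2 and 76.5 in the controls and to 94.7 and 103.7 in K0 and K1.

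Lhx1 (ENSMUSG00000018698.15, chromosome 11, 84518284 to 84525535, minus strand) was likewise split. Its FPKM was 5.30, 5.32 and 6.49 in C0, C1 and C2, 3.18 in K0 and 6.70 in K1. The log2 difference was -0.24 over both libraries (SE 0.264, 95% interval -0.90 to 0.43, limma adjusted p = 0.598). K0 alone gave -0.68 (adjusted p = 0.0331) and K1 alone 0.20 (adjusted p = 0.322). Lhx1os, the noncoding RNA that starts 125 bases away on the opposite strand, fell in both: it was at 23.2, 23.4 and 26.3 in the controls, 18.3 in K0 and 16.6 in K1. Its log2 difference was -0.45 (SE 0.0891, limma adjusted p = 0.0483), a call lost without any 1 of the 5 libraries (adjusted p from 0.0525 to 0.207). So in K1 the noncoding transcript was below every control while Lhx1 was above every control.

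Emx2 (ENSMUSG00000043969.4, chromosome 19, 59458372 to 59465357, plus strand) was close to its control level. Its FPKM was 21.5, 20.3 and 24.4 in C0, C1 and C2, 19.8 in K0 and 24.8 in K1. Knockout values fell just below and just above the control range. The log2 difference was 0.011 (SE 0.128, 95% interval -0.31 to 0.33, limma adjusted p = 0.965), so differences within that interval were not excluded. Emx2os, the antisense RNA that overlaps its start, was at 1.72, 1.45 and 1.68 in the controls and 1.95 and 1.97 in K0 and K1 (limma adjusted p = 0.292).

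The order of levels changed with these shifts. In the controls Pax8 led (62.2 ± 10.6, SD, n = 3), followed by Irx3 (30.8 ± 8.22) and Irx1 (30.3 ± 4.31), which overlapped, then Emx2 (22.1 ± 2.11), Pax2 (14.7 ± 2.31), Irx2, Sox4 (6.70 ± 0.762) and Lhx1 (5.70 ± 0.679). Sox4 and Lhx1 overlapped as well, as did Irx3 and Emx2, and Sox9 and Sox11 came last. Irx1 ranked 2 or 3 of the 10 in each control, 6 in K0 and 5 in K1. Sox4 ranked 7 in each control, 4 in K0 and 6 in K1.

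Ratios between factors do not depend on how a library is scaled, and 5 were computed. Irx1 over Irx2 was 2.75, 2.04 and 2.54 in C0, C1 and C2, 1.64 in K0 and 1.19 in K1. It was thus lower in both knockout libraries than in every control (log2 difference -0.79). Irx3 over Irx1 was 1.03, 0.842 and 1.14 in the controls, and 2.22 and 1.34 in K0 and K1 (log2 difference 0.79). Each of these ratios had an exact permutation p of 0.1, the smallest possible, and an adjusted p of 0.25 over the 5. Sox4 over Sox11 was 64.2, 72.0 and 71.4 in the controls, and 66.2 and 54.8 in K0 and K1 (log2 difference -0.20, exact permutation p = 0.3, adjusted p = 0.5). Pax8 over Pax2 ran from 3.39 to 5.58 in the controls and was 6.40 and 4.04 in K0 and K1 (exact permutation p = 0.5, adjusted p = 0.5). Sox4 over Sox9 was 20.6 to 39.7 in the controls, 3.93 in K0 and 32.9 in K1 (exact permutation p = 0.4, adjusted p = 0.5).

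**Figure D4:**
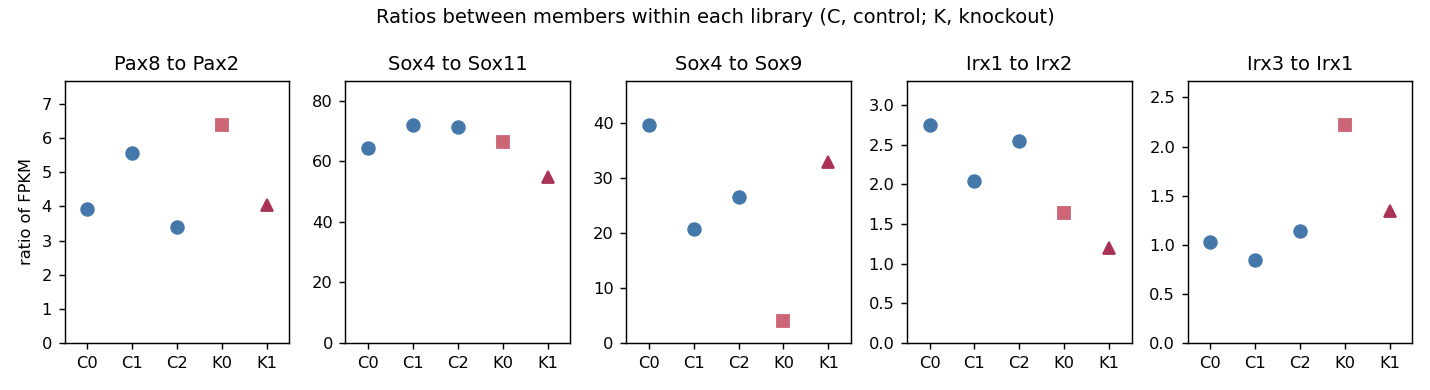
Ratio of FPKM of 2 factors within each library (vertical axes, linear, starting at 0) for control libraries C0 to C2 (circles) and knockout libraries K0 (square) and K1 (triangle). Irx1 over Irx2 was below 2.04 and Irx3 over Irx1 above 1.14 in both knockout libraries, the lowest and the highest control values.

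Among 34 further Pax, Sox, Irx, Lhx and Emx genes, 26 had a mean FPKM under 1 and 8 were tested. None of the 8 passed by limma, with 2 higher and 0 lower at an unadjusted p under 0.05 (12.5% and 16.6% of all tested rows), and their median log2 difference was -0.085. Sox18 and Sox7, regulators of endothelial identity, were at 7.30 to 9.13 in the controls with 10.6 and 10.6 in K0 and K1, and at 0.966 to 1.14 with 1.35 and 1.68 (limma adjusted p = 0.0936 and 0.17). Sox17, their endothelial relative, was at 3.35 to 3.77, 2.20 and 3.69. Sox13 was at 10.8 to 12.6, 9.74 and 10.2, Sox6 at 6.69 to 7.14, 6.91 and 8.49, and Sox12, the remaining SoxC gene, at 3.23 to 3.99, 3.16 and 3.29. Sox12 did not pass (log2 difference -0.11, 95% interval -0.36 to 0.14, limma adjusted p = 0.507). Emx1 was at 35.7 to 41.5 in the controls and 28.6 and 38.2 in K0 and K1.

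Regulators of nephron progenitors and of the ureteric bud, a list of 25 genes of which 15 were tested, gave 3 that rose, 1 that fell and 11 that did not pass by limma, with a median log2 difference of 0.20. Spry1, a feedback inhibitor of receptor tyrosine kinase signalling, rose from 9.21 ± 0.347 (SD, n = 3) to 17.1 and 16.8 in K0 and K1 (log2 0.82, SE 0.0655, adjusted p = 0.00825). Etv5, a transcription factor that acts downstream of the receptor Ret in the ureteric bud, rose from 5.76 ± 0.232 to 8.39 and 9.45 (adjusted p = 0.0286). Cited1, a coactivator of uncommitted nephron progenitors, was at 0.0942, 0.147 and 0.235 in the controls and 1.70 and 2.86 in K0 and K1 (adjusted p = 0.0249). It passed the filter on low values only through the knockout libraries, so its place among the tested genes is no support for the list. Wnt4, the ligand that turns progenitors into epithelium, fell from 2.54 ± 0.441 to 1.26 and 0.819 (adjusted p = 0.0492). Among all tested rows 2.73% were called higher and 3.62% lower. Without C0, C1 or C2 the number of the 15 that passed was 0, 1 and 0, the 1 being Spry1 (limma adjusted p = 0.0437). In those fits 37, 155 and 36 of all tested rows passed.

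A list of 26 other nephron transcription factors, all tested, gave 1 that rose, 0 that fell and 25 that did not pass by limma, with 1 higher and 3 lower at an unadjusted p under 0.05 (12.5% and 16.6% of all tested rows) and a median log2 difference of -0.096. Glis2, whose loss causes a cystic ciliopathy, was at 65.0 ± 6.84 (SD, n = 3) in the controls and rose to 108.5 in K0 and 105.4 in K1 (limma adjusted p = 0.0307). Hnf4g was at 4.97 to 5.40 in the controls and 3.95 and 4.04 in K0 and K1, Ehf, an epithelial Ets factor, at 12.2 to 14.1, 5.44 and 9.25, and Elf5, a factor of principal cells, at 3.68 to 4.95, 2.73 and 2.95 (limma adjusted p = 0.0655, 0.0787 and 0.107). In the fit over all 5 libraries 2.73% of all tested rows were called higher and 3.62% lower. Glis2 did not pass without C0, C1 or C2.

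**Figure D5:**
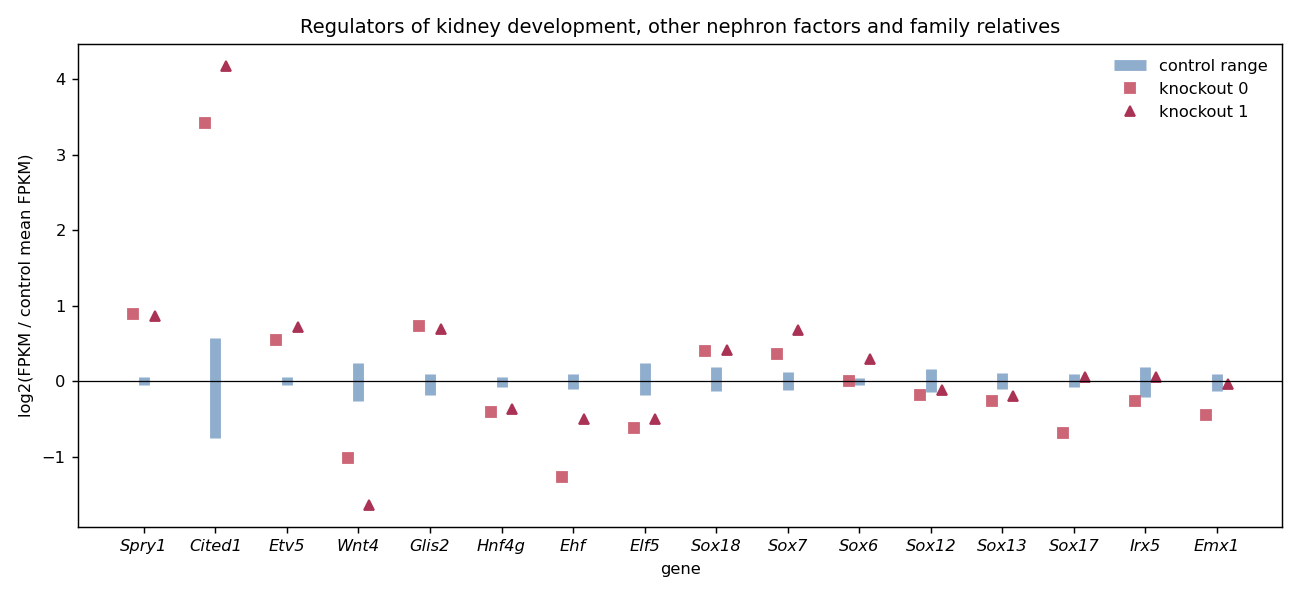
FPKM divided by the control mean, as log2 (vertical axis), of 16 other genes: 4 regulators of progenitors and the ureteric bud, 4 other nephron factors and the 8 tested family relatives, for K0 (square) and K1 (triangle), with the range of the 3 controls as a blue bar. Spry1, Etv5, Cited1, Glis2, Sox18 and Sox7 lay above all controls in both knockout libraries, and Wnt4, Hnf4g, Ehf, Elf5 and Sox13 below. Over all tested rows 21.9% lay above and 26.3% below.

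The patterns most like those of the called members were sought among 34 tested genes of the family and other nephron lists, by Euclidean distance over the 5 libraries of log2(FPKM + 1) minus the control mean. Nearest to Sox4 were Glis2 (distance 0.37) and Elf3 (0.80), the latter at 14.7, 15.5 and 14.9 in the controls, 30.3 in K0 and 15.3 in K1. Irx1 had no close match, its nearest being Ehf (1.01) and Hmx2 (1.44). Hmx2 was at 5.50 to 8.53 in the controls and 3.40 and 6.50 in K0 and K1.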

How the data were processed

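RNA from whole kidneys in 5 libraries, 3 uninduced controls and 2 Pkd1 knockouts, was measured. Per the labels' protocols, TRIzol total RNA (1 µg) went into an Illumina mRNA-seq kit. The deposited table holds FPKM computed by the authors, a column for each library. The submitters' processing notes name bcl2fastq and mm10. The aligner, quantifier, annotation and strandedness were not given in the sources used here.

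Here log2(FPKM + 1) was fitted for rows whose mean FPKM reached 1, with limma 3.58.1 in R 4.3.3 (variance trend, two-sided, Benjamini-Hochberg over all tested rows, threshold 0.05). The fit was tested on simulated data. Exact permutation tests over libraries used the absolute difference of means. Depth was estimated by matching low FPKM to whole fragments, using GENCODE M21 lengths of genes with 1 transcript. Depth bears on the scarce genes, whose intervals are exact Poisson ones. RefSeq promoter windows were matched by symbol (8 of 10 factors). Tables and plots used Python 3.11.15 with pandas 2.3.3, numpy 2.4.6 and matplotlib 3.10.9.

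The members and lists were chosen with earlier results of these data known. Named genes were all members, up to 4 genes per list by adjusted p, tested family relatives, overlapping or adjacent genes, and the 2 nearest patterns. Other named markers of injury and of cell types were chosen after their values were seen. Alternatives covered pseudocount, filter, scaling, variance model, rows at 0, threshold, replicate block and each library left out.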

Additional observations from a re-analysis of the deposited data

How the results depend on the processing

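Sox4 and Irx1 kept their direction under every alternative tried, and Sox4 its call under all that kept the 5 libraries except the replicate block. For Irx1 the adjusted p ranged from 0.00788 to 0.233 and for Sox4 from 0.0128 to 0.166. The count of 2 called factors was 0 to 4 with 1 library left out, and that of 802 rows 36 to 2599. With no filter 482 rows passed, and at an adjusted p under 0.1 the count was 2044. With the replicate number as a block 0 factors and 28 rows passed (limma), 1862 rows having an unadjusted p under 0.05. Deviations of same-numbered libraries from their group mean correlated at 0.128 and 0.0185. With 2 knockout libraries the deviations of K0 and K1 are mirror images, so this check cannot decide whether the numbers pair the samples. The fit behind the results above did not pair them. Rescaled to TPM, 454 rows were higher and 266 lower, against 345 and 457, and with a median-of-ratios scaling the split was 339 and 347. At a mean FPKM of at least 5 it was 292 and 543. Left out 1 library at a time, the log2 difference ran from -0.18 (without K1) to 0.46 for Pax2, from -0.68 to 0.20 (without K0) for Lhx1 and from -0.15 (without K1) to 0.17 for Emx2, which was at -0.0039 without C0 and -0.045 without C1. In the same way the log2 differences in ratio ran from -0.058 to 0.60 (Pax8 to Pax2), -2.83 to 0.24 (Sox4 to Sox9), -0.33 to -0.063 (Sox4 to Sox11), -1.03 to -0.56 (Irx1 to Irx2) and 0.43 to 1.16 (Irx3 to Irx1). With 1 added to each FPKM the Sox4 to Sox11 value was 0.75, since Sox11 lies far below 1. A pseudocount of 0.1 gave 0.71 for Sox11 and 1.97 for Sox9. Fits with 1 knockout library assume that it varies like the controls. The cause of the other changes was not tested.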
